A study of Mus musculus with 6 samples.

Results

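The whey and other non-casein milk proteins examined here were 7 genes, namely Wap, Lalba, B4galt1, Glycam1, Cel, Folr1 and Ltf. They were taken as every probe set of the array that the platform annotation assigns to one of these symbols and to no other gene. This gave 7 probe sets, 1 per gene, out of 34958 probe sets with a single symbol, or 7 of 18194 genes. No filter on dim values was used, so every member was measured on all arrays.

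Milk is made by luminal cells of the alveoli, which switch on milk protein genes during pregnancy under prolactin, glucocorticoid and contact with the basement membrane. Prolactin acts through the transcription factor Stat5, and Elf5 is a further regulator of the alveolar program. Besides the caseins, these cells secrete whey proteins, the sugar lactose and carriers of iron and vitamins. When suckling ends, milk stasis starts involution and most of these genes are shut down. Lactoferrin is an exception, known from several species to increase in the secretion of the involuting gland.

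Mammary glands of 3 Rac1-/- mice (Nas496, Nas497 and Nas518) and 3 WT mice (Nas478, Nas483 and Nas484) were profiled at involution day 2, each on its own Affymetrix mouse array. Rac1-/- mice were Rac1fx/fxYFP;WAPiCreTg/•, and WT mice were Rac1fx/fxYFP without Cre, so both groups carried the floxed Rac1 alleles and the YFP reporter. The labels call the groups age matched and give no age for these mice, and the study's methods give only a range of ages at mating for its females. Cre was driven by the promoter of the whey acidic protein, the product of Wap, which acts in luminal cells from mid-pregnancy. Glands with Cre and intact Rac1 were not analysed here, so the effects of Cre and of the deletion cannot be told apart. The gland also holds stromal, myoepithelial and immune cells that keep Rac1. In such whole tissue, fewer cells of a type and less RNA per cell cannot be told apart.

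Rac1 itself had log2 intensities between 9.01 and 9.84 in Rac1-/- glands and between 8.97 and 9.50 in WT glands on its brightest probe set. On the next it had 8.14 to 8.77 in Rac1-/- and 8.74 to 9.89 in WT glands. The position of the probe sets relative to the deleted exons is not given, so Rac1 is no check of the labels. The arrays differed in their spread, with an interquartile range of log2 intensity from 1.23 to 1.98 in Rac1-/- and from 1.42 to 2.85 in WT. On the first principal component, the main axis of variation between the normalized arrays, Nas497 and Nas484 lay apart at 195 and 115. The other arrays lay from -136 to 12.1. The 3' and 5' control probe sets are read as a guide to RNA quality. For actin the log2 value of the 3' one minus that of the 5' one was between -1.24 and -0.30 on Rac1-/- arrays. It was between -0.17 and 0.048 on WT arrays. The 5' probe set was thus the brighter one on every Rac1-/- array. For Gapdh it was -0.058 to 0.18 on Rac1-/- and -0.037 to 0.16 on WT arrays, with overlap. Of 12 luminal epithelial markers, 6 were above and 6 below 0 in log2 fold change, with a median near 0. Over 16 alternative settings this median ran from -0.69 (arrays scaled to a common median) to 0.30 (actin difference as covariate), and the ranges of list medians below are over the same settings. The luminal keratin gene Krt18 had log2 values of 10.71 to 10.91 in Rac1-/- and 9.67 to 10.29 in WT glands, so luminal RNA was present in every gland.

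To allow levels to be compared between arrays, intensities were quantile normalized and taken to log2. A log2 value therefore describes how bright a probe set was, and a log2 fold change of -1 stands for a level in Rac1-/- glands at 50% of that in WT glands. In limma, 0 genes, or 0% of the 18194 genes passed in either direction at an adjusted p under 0.05. At an unadjusted p under 0.05, 1.82% were lower and 2.23% higher in Rac1-/- glands. The log2 fold change was below 0 in 46.1% of genes. In 4.2% of genes all Rac1-/- values lay below all WT values, and in 5.41% they lay above.

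Against that background, 6 of the 7 milk protein genes had every Rac1-/- value below every WT value, and the same 6 had an unadjusted p under 0.05. Glycam1, Cel, Wap, Folr1, Lalba and B4galt1 had log2 fold changes from -3.62 to -1.94. Ltf, the gene of lactoferrin, had 0.044, with overlapping groups. None of the 7 passed at the adjusted threshold. The median over the members was -2.26, against 0.060 over all genes tested. Among the 1694 genes at least as bright as the dimmest member, the median was -0.063. In this bright set 3.07% were lower at an unadjusted p under 0.05 and 5.37% had all Rac1-/- values below all WT values. The study's array-based lists of lower genes hold Wap and Lalba. They name no stage, and the study cites them in its section on failed lactation, beside second-pregnancy glands. Whether they come from these arrays is not given, so the direction of both genes here cannot be counted as separate evidence.

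**Figure D1:**
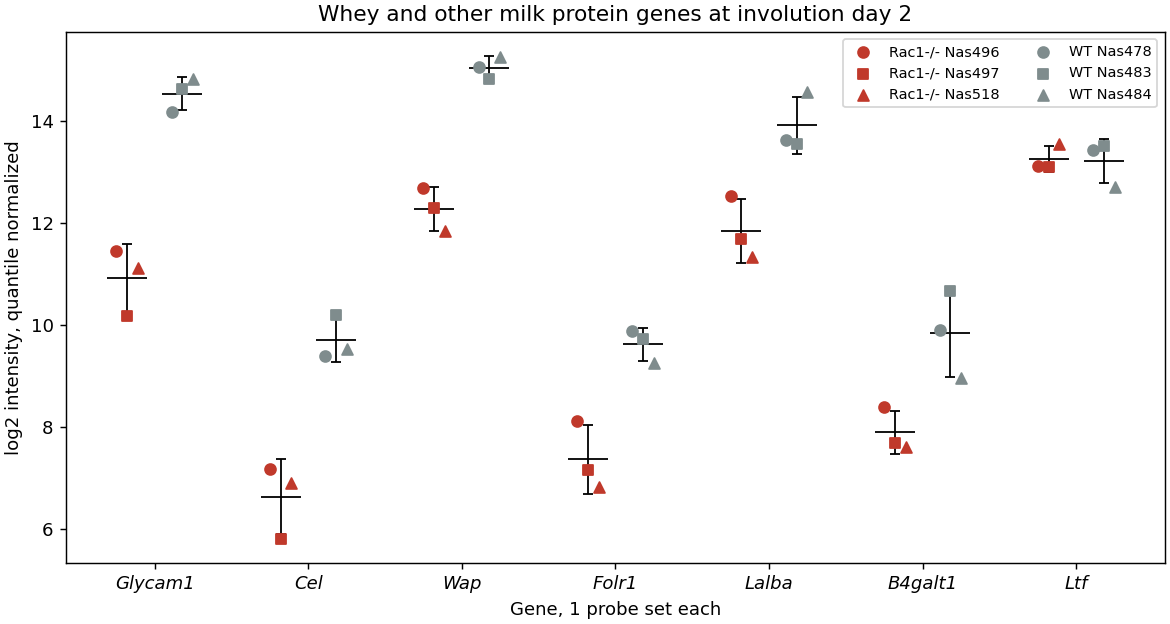
Quantile-normalized log2 intensity (vertical axis) of the 7 milk protein genes (horizontal axis) at involution day 2, with each symbol 1 mouse, Rac1-/- in red at the left of each gene and WT in grey at the right. Black bars are means and standard deviations (n = 3 per group). For 6 genes the red and grey symbols do not overlap, while for Ltf they do, with means of 13.26 and 13.22.

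Wap encodes whey acidic protein, the major whey protein of mouse milk. Its deposited intensity was 8035, 2467 and 2361 in the Rac1-/- mice Nas496, Nas497 and Nas518, against 54182, 46338 and 24532 in the WT mice Nas478, Nas483 and Nas484. The lowest WT array was thus above the highest Rac1-/- array already before normalization. Ordered by brightness within each array, Wap stood at place 98, 138 and 201 of 45101 probe sets in Rac1-/- glands and at place 15, 20 and 12 in WT glands. Such a place describes the signal of the probe set and not the amount of RNA. On the normalized log2 scale it averaged 12.28 ± 0.43 in Rac1-/- and 15.05 ± 0.23 in WT glands (SD, n = 3 each). Wap thus differed by -2.77 in log2 (SE 0.45, adjusted p = 0.653 in limma), or a 6.82-fold lower level. By unadjusted p it had place 5 among all genes tested.

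The promoter of Wap is shown here because the same control region drives Cre in the Rac1-/- mice. Those of B4galt1 and Glycam1 hold a match to the STAT motif, and that of Ltf belongs to the member whose level did not separate the groups. The windows are the 250 bases before the start used in a RefSeq promoter table (GRCm38.p6), written 5′ to 3′ on the gene's strand. The table holds 6 of the 7 members. The Lalba window lies within the annotated extent of its gene and was left out, and that of Wap overlaps its gene's extent by a few bases at the 3′ end. Capitals mark matches, on either strand, to the STAT motif, TTCNNNGAA, and to the C/EBP motif, TTGCNNAA. The TATA box, TATAAA, and the TTGGCA core of the NF1 site were searched and marked likewise.
Wap, chr11:6638650-6638899, minus strand: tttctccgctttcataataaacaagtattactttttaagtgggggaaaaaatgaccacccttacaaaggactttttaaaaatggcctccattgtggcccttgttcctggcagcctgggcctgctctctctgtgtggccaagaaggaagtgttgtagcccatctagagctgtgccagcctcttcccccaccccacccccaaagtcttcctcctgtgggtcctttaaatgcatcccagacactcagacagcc
B4galt1, chr4:40853985-40854234, minus strand: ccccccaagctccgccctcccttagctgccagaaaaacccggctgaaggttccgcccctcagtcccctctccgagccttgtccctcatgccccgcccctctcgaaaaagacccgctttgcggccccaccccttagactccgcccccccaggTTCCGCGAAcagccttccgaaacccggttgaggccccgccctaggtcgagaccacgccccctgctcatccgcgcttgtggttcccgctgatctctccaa
Glycam1, chr15:103565082-103565331, minus strand: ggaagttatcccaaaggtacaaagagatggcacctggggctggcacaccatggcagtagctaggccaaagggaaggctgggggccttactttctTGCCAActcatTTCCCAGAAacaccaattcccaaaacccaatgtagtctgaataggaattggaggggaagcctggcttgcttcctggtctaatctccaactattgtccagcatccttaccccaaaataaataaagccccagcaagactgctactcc
Ltf, chr9:111019042-111019291, plus strand: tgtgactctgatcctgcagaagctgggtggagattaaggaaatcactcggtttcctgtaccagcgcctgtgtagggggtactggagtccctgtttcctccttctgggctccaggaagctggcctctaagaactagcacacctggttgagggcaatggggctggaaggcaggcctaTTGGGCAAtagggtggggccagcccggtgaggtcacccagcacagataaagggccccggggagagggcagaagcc
In these 250 bases the STAT motif had 1 match in Glycam1, 145 to 137 bases before the start, and 1 in B4galt1, 99 to 91 bases before it. It occurs in 7.02% of the 32851 RefSeq windows of this length. The NF1 core lay 156 to 151 bases before the start in Glycam1, next to the STAT match without overlap, and is found in 12.3% of windows. The C/EBP motif matched in Ltf, 75 to 68 bases before the start, and in 9.56% of all windows. The TATA box, found in 12.4%, matched in none of the windows read. The windows of Wap and Cel held no match. GC content was 66.4% in the B4galt1 window and 49.6% in those of Wap and Glycam1. A match is a description of the sequence and not a measured binding site.

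Lalba and B4galt1 encode the partners of lactose synthase. B4galt1 is a galactosyltransferase of the Golgi found in many tissues, and alpha-lactalbumin, the product of Lalba, binds to it and redirects it to make lactose. Lalba had deposited intensities of 7394, 1539 and 1700 in Rac1-/- mice (Nas496, Nas497, Nas518), against 18874, 16541 and 16408 in WT mice (Nas478, Nas483, Nas484). The WT values were close to each other, and Nas496 was the Rac1-/- gland nearest to them. On the log2 scale Lalba averaged 11.85 ± 0.62 in Rac1-/- and 13.92 ± 0.56 in WT glands (SD, n = 3 each). The groups differed by -2.07 in log2 (SE 0.52, adjusted p = 0.946 in limma), a 4.21-fold lower level.

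B4galt1 had deposited intensities of 356, 174 and 184 in Rac1-/- mice and 1331, 2111 and 429 in WT mice, in the same order. The WT gland Nas484 lay close to the Rac1-/- gland Nas496. The log2 level was 7.90 ± 0.43 in Rac1-/- and 9.84 ± 0.86 in WT glands (SD, n = 3 each), a change of -1.94 in log2 (SE 0.56, adjusted p = 0.946 in limma). Its groups overlapped when arrays were scaled to a common median, where Nas496 had 8.58 and Nas484 had 8.49, and the log2 fold change there was -2.71. The WT spread of B4galt1 was the widest among the members, at 1.72 between its highest and lowest mouse on the log2 scale.

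Whether the lactose synthase partners differed in their change was asked within each mouse. The log2 value of Lalba minus that of B4galt1 was 3.95 ± 0.22 in Rac1-/- and 4.08 ± 1.39 in WT glands (SD, n = 3 each). The groups differed by -0.13 (exact two-sided permutation p = 0.9), and this was 0.67 without Nas484, 0.027 without Nas518, 0.30 with array weights and 0.76 without Nas484 and Nas497 together. In an exact test of 3 mice against 3, p cannot fall below 0.1. The log2 value of Wap minus that of Lalba differed by -0.70, with 0.43 ± 0.23 in Rac1-/- and 1.13 ± 0.37 in WT glands (exact permutation p = 0.1, the smallest possible). Adjusted over the 4 pairs compared, that p was 0.133. With a common median and with the deposited scaling alone this difference was -0.77, each with an exact permutation p of 0.2. It ran from -1.12 to -0.54 under the 14 other settings for which it was computed.

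Other genes of lactose synthesis were examined beside them. Of 7 measured genes that supply glucose, UDP-galactose and its transport, 5 were below and 2 above 0, the median log2 fold change being -0.099, with no gene at an unadjusted p under 0.05. That median was -0.81 after scaling to a common median, but 1.01 when the actin difference entered as a covariate. Slc2a1, the glucose transporter of the alveolar cell, stood at -0.66 in log2 (SE 0.93). Its values ran from 7.07 to 9.13 in Rac1-/- and from 6.97 to 10.31 in WT glands. The smallest unadjusted p of this list belonged to the hexokinase gene Hk1, at -0.65 (SE 0.48), and to the phosphoglucomutase gene Pgm1, at 0.36 (SE 0.47). The other galactosyltransferase genes of the B4galt family had log2 fold changes from -0.28 to 0.97 in 6 genes, 2 below and 4 above 0, with a median of 0.12 that ran from -0.10 (without Nas496) to 0.53 (deposited scaling). B4galt5 had the highest value, with all Rac1-/- glands above all WT glands, and next by p stood B4galt4 with 0.23 (SE 0.47).

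Glycam1 encodes a small mucin-like glycoprotein that the lactating mammary epithelium secretes. In lymph nodes the same gene is active in high endothelial venules, where its product carries ligands for L-selectin. Deposited intensities were 3555, 560 and 1502 in Rac1-/- mice (Nas496, Nas497, Nas518), against 27787, 39656 and 17734 in WT mice (Nas478, Nas483, Nas484). Every WT gland lay above every Rac1-/- gland by a wide margin, with a gap of 2.71 on the normalized log2 scale between the closest mice of the groups. The log2 level averaged 10.92 ± 0.67 in Rac1-/- and 14.54 ± 0.33 in WT glands (SD, n = 3 each). The groups differed by -3.62 in log2 (SE 0.50, adjusted p = 0.575 in limma), a 12.3-fold lower level. Glycam1 had the smallest unadjusted p of all 18194 genes and place 3 when genes were ordered from the lowest log2 fold change.

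The inguinal gland can hold a lymph node, so markers of its venules and lymphocytes were read beside Glycam1. Of 7 venule markers 5 were above and 2 below 0, with a median of 0.64 that ran from -0.35 (actin covariate) to 1.10 (deposited scaling) and was 0.052 without Nas483. Their mean log2 level was 5.42 to 5.87 in Rac1-/- and 4.74 to 5.89 in WT glands, below the median of 6.20 over all genes. Madcam1, an adhesion molecule of venules, stood at -1.79 in log2 (SE 0.67), with values of 2.41 to 4.91 in Rac1-/- and 4.94 to 5.93 in WT glands. Ackr1, a chemokine-binding receptor of venules, had 0.83 (SE 0.62). Of 13 lymphocyte markers 9 were above and 4 below 0, with a median of 0.53, from 0.11 to 0.71 over the settings, and mean levels of 6.42 to 6.82 in Rac1-/- and 5.97 to 6.56 in WT glands. Fcer2a and Cxcl13, a chemokine gene counted with these markers, had the smallest p there, with 1.06 (SE 0.49) and 0.91 (SE 0.56). The part of lymph node RNA in the level of Glycam1 was not tested.

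Cel encodes the bile salt-activated lipase, an enzyme made by the pancreas and, in many species, by the lactating gland, which releases it into milk. It had deposited intensities of 145, 81.6 and 123 in Rac1-/- mice, against 918, 1535 and 634 in WT mice. In the Rac1-/- mice these signals were near the bulk of the array, at place 8665, 24793 and 10935 of 45101, while in WT mice they stood at place 1271, 664 and 1137. The log2 level averaged 6.63 ± 0.73 in Rac1-/- and 9.70 ± 0.43 in WT glands (SD, n = 3 each), a change of -3.07 in log2 (SE 0.53, adjusted p = 0.713 in limma). When the actin difference entered as a covariate, it was -2.23.

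Folr1 encodes folate receptor alpha, a folate-binding protein that sits on epithelial membranes and is also found in soluble form in milk. It had deposited intensities of 291, 144 and 117 in Rac1-/- mice and 1317, 1104 and 528 in WT mice. On this scale the lowest WT gland was Nas484 and the highest Rac1-/- gland Nas496. The log2 level was 7.36 ± 0.67 in Rac1-/- and 9.62 ± 0.33 in WT glands (SD, n = 3 each), a change of -2.26 in log2 (SE 0.50, adjusted p = 0.946 in limma). Of 4 other measured genes of folate uptake or of the folate receptor family, 3 were below and 1 above 0. Their log2 fold changes ran from -0.70 for Slc46a1 to 0.34 for Izumo1r, a gene of that family, with a median of -0.10. That median ran from -1.30 (actin covariate) to 0.29 (without Nas518), and was -0.65 without Nas497. Folr2, a folate receptor of macrophages, had -0.025 (SE 0.52).

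Ltf encodes lactoferrin, an iron-binding protein of milk that is also stored in the granules of neutrophils. Deposited intensities were 10716, 4328 and 8349 in Rac1-/- mice (Nas496, Nas497, Nas518), against 16305, 15297 and 5787 in WT mice (Nas478, Nas483, Nas484). The groups overlapped, since the WT gland Nas484 lay below 2 Rac1-/- glands. On the log2 scale Ltf averaged 13.26 ± 0.26 in Rac1-/- and 13.22 ± 0.44 in WT glands (SD, n = 3 each), a change of 0.044 in log2 (SE 0.45, adjusted p = 0.996 in limma). The 95% interval of this value ran from -0.99 to 1.08, so changes of up to about that size in either direction lie within the error. Its sign rested on the scaling, with -1.10 after scaling to a common median and -0.63 with the deposited scaling alone, and it was -0.20 without Nas484 and -0.098 without Nas518. At place 69, 70 and 49 in Rac1-/- and 55, 52 and 97 in WT glands, its ranks overlapped between the groups.

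Ltf was set against Wap within each mouse. The log2 value of Wap minus that of Ltf was -0.98 ± 0.66 in Rac1-/- and 1.83 ± 0.65 in WT glands (SD, n = 3 each), a difference of -2.81 (exact two-sided permutation p = 0.1, or 0.133 adjusted over the 4 pairs). This pair was chosen after the values were seen. It stayed below 0 under the 14 other settings for which it was computed, between -3.25 and -2.46. Those that changed the probe sets or the floor for dim values could not alter it.

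Neutrophil markers were read beside Ltf. Of 11 measured, 7 were above and 4 below 0, with a median of 0.19. It ran from -0.0014 (without Nas478) to 1.17 (deposited scaling), with 0.53 without Nas497. Their mean log2 level was 5.72 to 5.91 in Rac1-/- and 5.03 to 5.85 in WT glands, below the median of 6.20 over all genes. Among the granule genes, Ngp had 4.34 to 6.42 in Rac1-/- and 4.29 to 6.22 in WT glands, and Camp had 5.32 to 7.14 in Rac1-/- and 6.02 to 6.35 in WT glands. The smallest p belonged to Mpo, at 1.65 (SE 0.54), and Chil3, at 0.77 (SE 0.61). The part of neutrophil RNA in the level of Ltf was not tested.

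Of 5 further genes of iron binding and uptake, all were below 0, and the median of their log2 fold changes was -0.40, running from -1.50 (common median) to 0.40 (actin covariate). None had an unadjusted p under 0.05. The transferrin receptor gene Tfrc had -1.29 (SE 0.74) and the ferritin gene Fth1 had -0.56 (SE 0.57). Lcn2, a secreted protein that binds iron carriers of bacteria and a marker of involution, had -0.40 (SE 0.52), with 13.71 to 14.28 in Rac1-/- and 13.71 to 15.19 in WT glands. It also belongs to the acute phase genes of involution. Of 12 of these measured, 11 were below 0 with a median of -1.56 (-2.48 with a common median and -0.77 with the actin covariate), and 7 had all Rac1-/- values below all WT values. Saa2, a serum amyloid A gene, had -2.49 (SE 0.48) and Lbp, which binds bacterial lipopolysaccharide, had -2.04 (SE 0.50).

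**Figure D2:**
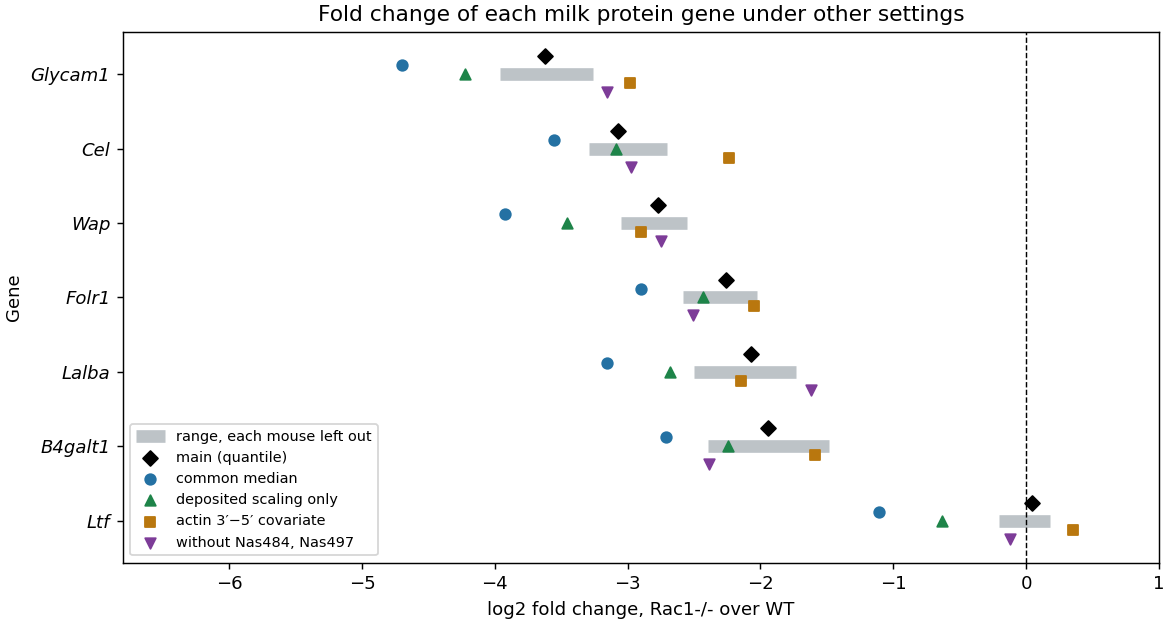
Log2 fold change, Rac1-/- over WT (horizontal axis) of the 7 genes (rows) with the main settings and 4 others, 1 symbol per setting, with grey bars for the range when each mouse was left out in turn. For Glycam1, Cel, Wap, Folr1, Lalba and B4galt1 every symbol lies left of 0, while Ltf runs from -1.10 with a common median to 0.35 with the actin covariate.

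The 6 genes with lower levels shared 1 mouse at the top of the Rac1-/- group. Nas496 had the highest level of all Rac1-/- glands for 6 of 6 genes, on the normalized and on the deposited scale. Among WT glands the order depended on the scale. On the deposited scale Nas484 was lowest for all 7 members, while after normalization it was highest for Wap, Lalba and Glycam1. Over the 15 pairs of these 6 genes, Pearson's r across the 6 arrays ran from 0.74 for Lalba with B4galt1 to 0.99 for Glycam1 with Cel. With Ltf it ran from -0.42 to 0.23. These values are descriptive, since arrays of both groups enter and any pair of genes that separates the groups correlates.

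Among 9096 other genes above the median level, those most like Wap by Pearson's r across the 6 arrays were Zmynd19 (0.987), Erp29 (0.984) and Wfdc3 (0.980). Erp29 is a chaperone of the endoplasmic reticulum, and it had a log2 fold change of -0.43. For Lalba they were Dkkl1 (0.996), Stat6 (0.994) and Lncpint (0.992). For Glycam1 they were Dhrs3 (0.988), the member Cel (0.987) and Surf4 (0.987), a cargo receptor between endoplasmic reticulum and Golgi with a log2 fold change of -0.79. Those most like Ltf were Rsl1d1 (0.990), Donson (0.989) and Carnmt1 (0.988), with log2 fold changes between 0.022 and 0.13. With so few arrays such values are common, as 30 genes reached an r above 0.95 with Wap, 41 with Lalba, 17 with Glycam1 and 19 with Ltf.

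**Figure D3:**
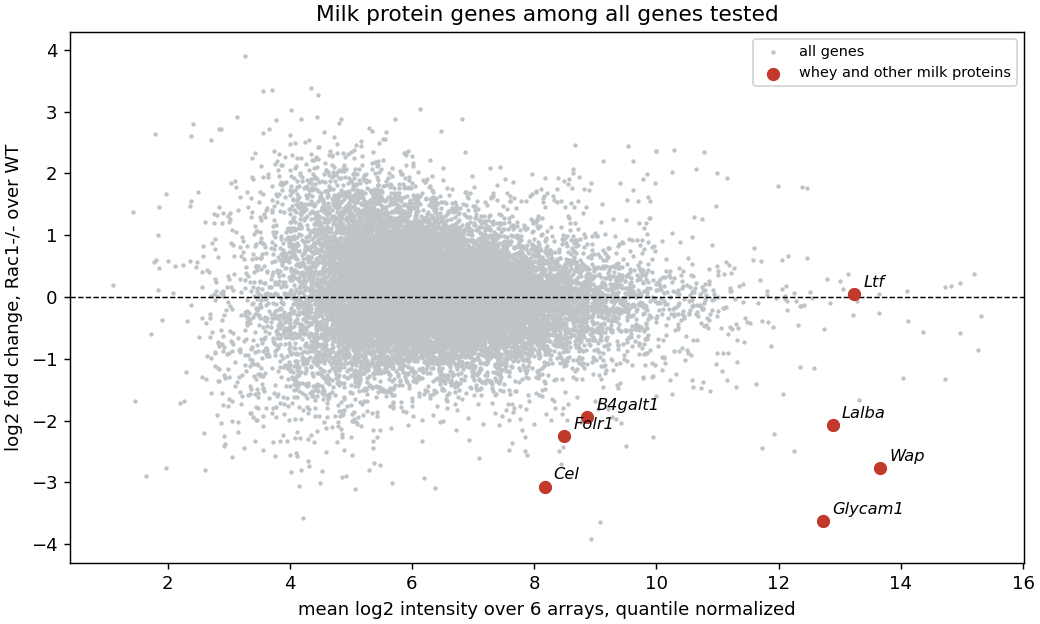
Log2 fold change, Rac1-/- over WT (vertical axis) against the mean log2 intensity over the 6 arrays (horizontal axis) for 18194 genes in grey and the 7 milk protein genes in red. Wap, Lalba, Glycam1 and Ltf lie among the brightest genes, and 6 of the 7 lie below -1.9 while Ltf lies at 0.044.

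The caseins, the other large group of milk proteins, were set beside the whey genes. They have 11 probe sets for 5 genes, and each gene is given by its brightest one. The other probe sets were not read one by one. All 5 casein genes were below 0, with log2 fold changes of -1.33 for Csn1s2a, -1.31 for Csn1s1, -0.86 for Csn2, -0.58 for Csn1s2b and -0.31 for Csn3. On these brightest probe sets none had an unadjusted p under 0.05 in limma. In 2 of the genes, Csn2 and Csn1s2b, all Rac1-/- values lay below all WT values. The median of the 5 genes was -0.86, running from -2.15 (common median) to 0.24 (actin covariate), and was -0.46 without Nas497. With all probe sets of a gene averaged it was -0.96. For Csn1s2a the study's array-based list, which names no stage, gives a fall far larger than the one here. The part of probe set choice in this was not tested. Csn2, the gene of beta-casein, had log2 values of 14.89, 14.99 and 14.63 in Rac1-/- and 15.55, 15.59 and 15.96 in WT glands. The log2 value of Wap minus that of Csn2 was -2.56 ± 0.32 in Rac1-/- and -0.65 ± 0.14 in WT glands (SD, n = 3 each). The difference of -1.91, for a pair chosen after the values were seen, had an exact two-sided permutation p of 0.1 (0.133 adjusted over the 4 pairs). It ran from -2.16 to -1.72 under the 14 other settings for which it was computed, and the other floor left it the same. Without probe sets whose ID ends in _x_at or _s_at it was -1.72, with an exact permutation p of 0.3. Csn2 lay at the upper end of the intensity range, and whether its signal was saturated was not tested.

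Genes of the milk fat globule were all below 0 in 8 of 8 cases, with a median of -1.55 and 7 at an unadjusted p under 0.05. Cidea, a protein of the lipid droplet surface, stood at -2.50 in log2 (SE 0.59) and Fabp3, a fatty acid carrier, had -2.27 (SE 0.58). The median ran from -2.65 (common median) to -0.76 (actin covariate). Of 6 other secreted proteins of milk, all were below 0 with a median of -0.87, running from -1.95 (common median) to -0.40 (actin covariate), and was -1.34 without Nas484. Saa3 had -1.94 (SE 0.69) and Slpi, a protease inhibitor, had -1.35 (SE 0.53). Pigr, the receptor that carries immunoglobulin A into milk, had -2.42 (SE 1.02) with overlapping groups.

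Wap has relatives that share its WAP domain, a cysteine-rich fold found in protease inhibitors. Of 9 genes with such or a similar inhibitor role, 4 were below and 5 above 0, with a median of 0.11 that ran from -0.81 (common median) to 0.32 (without Nas518) and was -0.13 without Nas497. Wfdc3 stood at -3.64 in log2 (SE 0.60), with 8.49, 6.95 and 6.34 in Rac1-/- and 10.85, 10.94 and 10.90 in WT glands. Wfdc12 had -1.59 (SE 0.43), and Slpi also belongs here. Wfdc18, with 14.89 to 15.44 in Rac1-/- and 14.73 to 15.11 in WT glands, had 0.23 (SE 0.43).

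**Figure D4:**
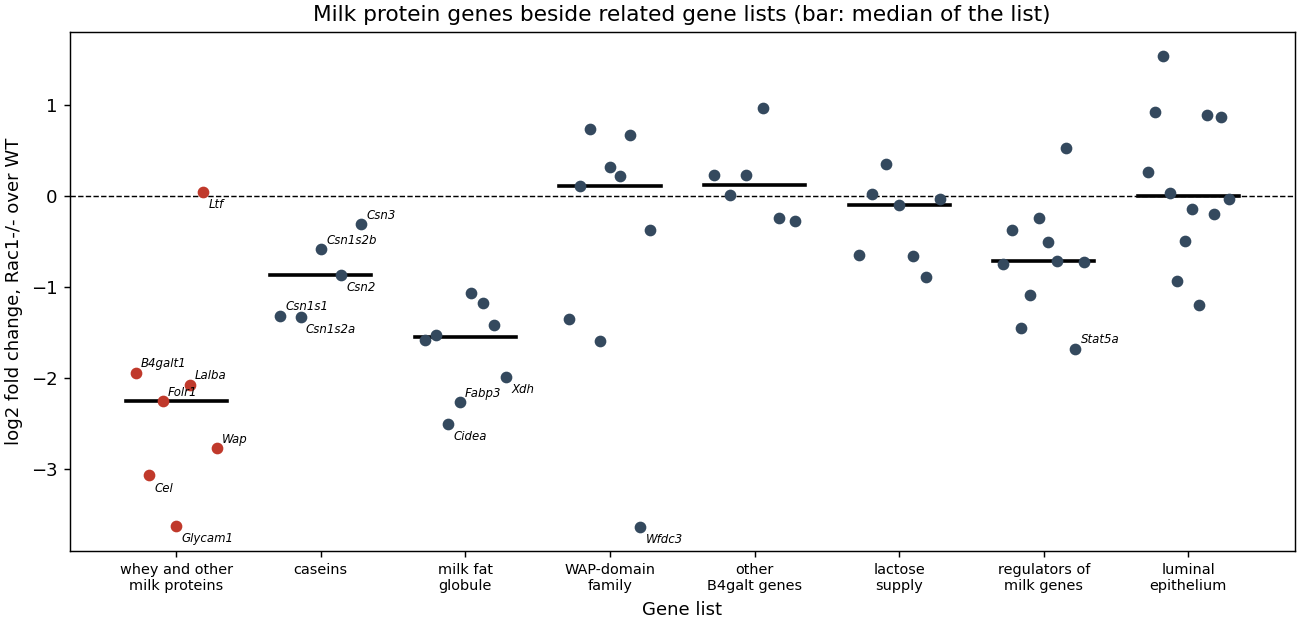
Log2 fold change, Rac1-/- over WT (vertical axis) of single genes (points) in 8 gene lists (horizontal axis), with black bars for the median of each list and the milk protein genes in red. The red median lies at -2.26, those of the caseins and milk fat globule genes at -0.86 and -1.55, and that of luminal epithelial markers near 0.

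Of 10 regulators of milk genes measured, 9 were below 0, with a median of -0.71, or -1.35 with a common median, and 3 had all Rac1-/- values below all WT values. Elf5, the alveolar transcription factor, had 10.70, 10.17 and 10.86 in Rac1-/- and 11.96, 11.57 and 12.54 in WT glands, a log2 fold change of -1.45 (SE 0.47). Stat5a, which carries the prolactin signal to milk genes, had -1.68 (SE 0.71), with 6.68 to 7.62 in Rac1-/- glands. In the WT glands Nas478, Nas483 and Nas484 it had 7.93, 7.99 and 10.36, so the size of its change leaned on Nas484. The study's array-based lists of lower genes, which name no stage, hold both genes and all 5 caseins. Without Nas484 the median of this list was -1.12 and without Nas478 it was -0.46.

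Markers of other cell types were read in the same glands. Among luminal markers the smallest p belonged to Cldn4, a tight junction gene at 1.54 (SE 0.48), and Esrp1, a splicing regulator of epithelia at -1.20 (SE 0.47). Myoepithelial markers had a median of 0.021 over 9 genes, with Acta2 at 1.24 (SE 0.56) and Krt14 at 1.25 (SE 0.72), and that median ran from -0.37 (common median) to 0.31 (without Nas484). Adipocyte markers had a median of 0.060 over 7 genes, with Retn at 0.66 (SE 0.47) and Pnpla2 at -0.84 (SE 0.66), and that median ran from -0.56 (common median) to 0.78 (actin covariate). All 10 macrophage markers were above 0, with a median of 0.68 that ran from -0.14 (common median) to 1.39 (actin covariate). Ctss had 1.28 (SE 0.72) and Lyz2 had 0.82 (SE 0.47), and the mean level of this list was 8.14 to 9.44 in Rac1-/- and 7.67 to 8.58 in WT glands. The part of cell composition in the levels of the milk protein genes was not tested.

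The actin difference separated the groups, being lower on every Rac1-/- array than on any WT array, and the Gapdh difference did not. The part of RNA quality in the results was not tested beyond the use of the actin difference as a covariate. With the actin difference as covariate the log2 fold changes were -2.98 for Glycam1, -2.90 for Wap, -2.23 for Cel, -2.15 for Lalba, -2.05 for Folr1 and -1.59 for B4galt1, and for B4galt1 the unadjusted p was then 0.0797. The other 5 stayed at an unadjusted p under 0.05. The scaling also mattered for the size. After scaling to a common median the log2 fold changes of these 6 genes ran from -4.70 for Glycam1 to -2.71 for B4galt1, while the median of all genes shifted by -0.19 to -0.13. With the deposited scaling alone the 6 values ran from -4.22 to -2.24, against a median of all genes of 0.34. Of the genes at an unadjusted p under 0.05, 55.0% were higher with the main settings, 42.0% with a common median and 78.2% with the deposited scaling.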

How the data were processed

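RNA of 6 mammary glands, 3 Rac1-/- and 3 WT, was amplified by the authors with the Affymetrix Sensation kit and hybridized to mouse arrays, 1 per mouse, which the labels give as separate animals. The study describes this kit as one for low-quality RNA in small amounts. For every probe set the authors deposited a linear intensity. How probes were summarised is not given in the sources used here. The trimmed mean of each array, leaving out 2% at either end, is 100 in the deposited values, with medians from 40.6 to 88.0, so deposited intensities were scaled per array and are not centred by gene. No pair of arrays was identical (0 pairs), and array number limits the precision.

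Intensities were quantile normalized (limma 3.58.1, R 4.3.3), floored at 1 and converted to log2. Of 45101 probe sets, 34958 name 1 gene, 932 several and 9211 none. Each of 18194 genes took its probe set with the highest mean, and Rac1-/- was compared with WT by lmFit and eBayes with Benjamini-Hochberg adjustment over all genes, two-sided. Paired genes were compared by exact permutation over mice. In data simulated with this design over 18194 genes, the adjusted threshold was passed by 28 of 50 genes changed by 4 in log2. By 3 it was 20 of 50, by 2 it was 0 of 50, and by 1 also 0 of 50. There was 1 false call. The simulated noise was drawn independently for each gene, with no variation shared by a whole array. These rates therefore need not hold for the real arrays. Members, lists and settings were chosen with earlier results of these data known. Named are all members, the caseins, the 2 genes of each list with the smallest p, the 3 genes most like Wap, Lalba, Glycam1 and Ltf, and others chosen after their values were seen. The settings tried leave out mice, change the scaling, floor, probe sets or dim genes, make the prior variance depend on the mean, weight arrays or add the actin difference as a covariate. Genes with no probe set of a single symbol were not analysed here.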

Additional observations from a re-analysis of the deposited data

How the results depend on the processing

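The log2 fold changes of Glycam1, Cel, Wap, Folr1, Lalba and B4galt1 stayed below 0 under all 16 alternatives. Averaging or dropping probe sets, leaving out dim genes, the other floor and the prior variance could not change these values. No member had a further probe set or lay below either floor. No gene passed the adjusted threshold in limma under any alternative (0 genes lower and 0 higher). Leaving out each mouse in turn gave -3.96 to -3.26 for Glycam1, -3.29 to -2.70 for Cel, -3.05 to -2.56 for Wap, -2.58 to -2.03 for Folr1, -2.50 to -1.73 for Lalba and -2.40 to -1.48 for B4galt1. Over all alternatives the adjusted p of Glycam1 was 0.170 at its lowest. Ltf was below 0 without Nas484 or Nas518 (-0.20 and -0.098, with -0.20 to 0.18 over the mice left out), with a common median (-1.10), the deposited scaling alone (-0.63), array weights (-0.061) and without Nas484 and Nas497 together (-0.12). The difference for Lalba minus B4galt1 was -0.71 to 0.67 over the mice left out, 0.30 with array weights and 0.76 without Nas484 and Nas497.

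Genes at an unadjusted p under 0.05 numbered 332 lower and 405 higher. Leaving out single mice gave 186 lower (Nas478) to 535 (Nas496), and 205 higher (Nas497) to 1143 (Nas484). They were 538 lower with a common median, 180 lower and 646 higher with the deposited scaling alone, 205 and 157 over genes above the median level, 551 and 902 with array weights, 677 lower with the actin covariate, and 530 and 800 without Nas484 and Nas497. The causes were not tested, except that the restricted set tests fewer genes. No paired analysis was possible because nothing in the labels ties a mouse of one group to a mouse of the other, and replicate numbers only follow the order of the samples.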
